A study of Mus musculus with 8 samples.

Results

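RNA levels of 39 genes of mitosis and the G2/M transition were followed in 4 mouse pro-B cell lines. The genes form a fixed list of mitotic kinases, cyclins, checkpoint, kinetochore, spindle, cytokinesis and anaphase-promoting complex genes. The list was chosen by function, with earlier results of these data known. Each of the 39 genes was found by symbol among the 23929 symbols in the deposited tables. All 39 also passed the filter on low values, which left 10479 genes for testing. Their mean level over the 8 libraries was 7.11 FPKM or more (fragments per kilobase of transcript, scaled to the mapped reads of the library). Pro-B cells are B cell precursors that rearrange the immunoglobulin heavy chain (IgH) locus. The lines were derived from bone marrow of strain 129SV and were grown untreated. CBE line 1 and CBE line 2 are titled CBE-/- and carry the genotype IGCR1-/-. IGCR1 is an intergenic control region of the IgH locus that holds CTCF-binding elements (CBE). The Eµ-deleted line lacks the intronic IgH enhancer Eµ (Eµ-/-). The remaining line is wild type (WT), and each of the 4 lines gave 2 libraries. Genotype and line cannot be told apart here, because WT and Eµ-deleted cells are each represented by a single line. Nothing in the labels tells whether paired libraries had separate cultures behind them, so the p-values measure only the spread between these libraries, which may be technical.

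Mitosis is driven by the kinase CDK1 bound to cyclins A and B, and by the Polo-like and Aurora kinases, which together build the spindle and condense the chromosomes. The spindle checkpoint then holds back the anaphase-promoting complex, a ubiquitin ligase, until every kinetochore is attached to microtubules, and the central spindle proteins finally guide the division of the cytoplasm. Transcription of many of these genes peaks in G2 and M. In mammals it is repressed in resting cells by the DREAM complex and activated in cycling cells by B-MYB and FOXM1, largely through a promoter element called the cell cycle genes homology region (CHR), often with CCAAT boxes that bind NF-Y. In RNA from a whole culture, more cells in G2 or M and more of a transcript per cell cannot be told apart.

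The promoters of 5 genes are shown because they span the range of the results below: Prc1, Ttk and Nusap1 were called higher than WT in each deletion line, and Cdk1 and Cenpa were among the 3 members with the least evidence of a difference between lines. Each runs from 250 bases before to 50 bases after the gene start, 5′ to 3′ on the strand of the gene, and comes from RefSeq on build GRCm38.p6. Capitals mark the CHR core TTTGAA and the CCAAT box CCAAT, or their reverse complements. The Prc1 window is chr7:80294201-80294500 (plus strand), the Ttk window chr9:83834439-83834738 (plus strand), the Nusap1 window chr2:119618048-119618347 (plus strand), the Cdk1 window chr10:69352863-69353162 (minus strand) and the Cenpa window chr5:30666636-30666935 (plus strand).
Prc1: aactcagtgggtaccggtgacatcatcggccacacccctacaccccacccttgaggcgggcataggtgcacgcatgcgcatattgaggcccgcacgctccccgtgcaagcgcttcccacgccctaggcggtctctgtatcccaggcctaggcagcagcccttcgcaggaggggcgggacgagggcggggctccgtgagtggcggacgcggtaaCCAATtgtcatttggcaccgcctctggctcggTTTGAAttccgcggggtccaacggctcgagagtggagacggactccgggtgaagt
Ttk: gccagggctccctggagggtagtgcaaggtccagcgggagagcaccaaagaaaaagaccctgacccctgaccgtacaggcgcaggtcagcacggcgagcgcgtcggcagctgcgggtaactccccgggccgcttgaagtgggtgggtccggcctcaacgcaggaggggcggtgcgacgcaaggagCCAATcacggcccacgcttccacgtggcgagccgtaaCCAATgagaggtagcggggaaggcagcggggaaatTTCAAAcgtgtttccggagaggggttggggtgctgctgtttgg
Nusap1: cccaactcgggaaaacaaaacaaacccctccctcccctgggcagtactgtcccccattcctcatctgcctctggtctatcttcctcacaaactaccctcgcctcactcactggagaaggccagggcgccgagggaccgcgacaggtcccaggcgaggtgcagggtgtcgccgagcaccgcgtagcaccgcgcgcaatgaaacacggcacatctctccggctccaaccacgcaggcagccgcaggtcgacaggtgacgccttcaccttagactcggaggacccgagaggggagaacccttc
Cdk1: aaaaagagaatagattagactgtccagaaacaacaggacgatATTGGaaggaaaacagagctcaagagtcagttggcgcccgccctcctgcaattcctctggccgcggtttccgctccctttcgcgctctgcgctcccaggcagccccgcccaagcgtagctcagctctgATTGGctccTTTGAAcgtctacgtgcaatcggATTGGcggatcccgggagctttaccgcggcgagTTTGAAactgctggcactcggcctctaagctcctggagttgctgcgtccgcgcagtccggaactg
Cenpa: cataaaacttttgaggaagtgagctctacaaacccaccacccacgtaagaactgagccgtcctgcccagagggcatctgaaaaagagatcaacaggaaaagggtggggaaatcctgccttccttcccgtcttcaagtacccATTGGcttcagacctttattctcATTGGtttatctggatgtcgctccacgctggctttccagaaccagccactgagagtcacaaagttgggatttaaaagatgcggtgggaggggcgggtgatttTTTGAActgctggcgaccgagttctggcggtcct
Prc1 has 1 CHR core, which begins 5 bases before the start, and 1 CCAAT box. Ttk has 1 CHR core and 2 CCAAT boxes, and Cenpa likewise has 1 CHR core and 2 CCAAT boxes. Cdk1 has 2 CHR cores and 3 CCAAT boxes, while neither set of letters occurs in the Nusap1 window. A match describes the letters only and is not evidence of binding.

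A RefSeq promoter was matched for 35 of the 39 members, the exceptions being Aurkb, Ccna2, Spc24 and Tpx2. Searched on both strands, TTTGAA occurred in a promoter of 24 of the 35 members (68.6%), where a match in any listed promoter of a gene counted. The share was 14.1% of the 7825 other tested genes with a promoter and 20.2% of all 27025 genes with a promoter in the RefSeq table. In the first listed promoter of each gene, TTTGAA occurred within 50 bases of the start in 22 of the 35 (62.9%), against 2.86% of the other tested genes. CCAAT occurred in 26 of the 35 (74.3%), against 43.9% of the other tested genes, and no printed match of one motif shares a base with a match of the other. The shares were lower among 115 further mitosis genes described below, of which 92 had a promoter, at 47.8% for TTTGAA and 58.7% for CCAAT. Members with TTTGAA had a median log2 difference from WT of 0.46 (CBE line 1), 0.26 (CBE line 2) and 0.41 (Eµ-deleted). The 11 members without it had medians of 0.39, 0.24 and 0.29 in the same lines.

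**Figure D1:**
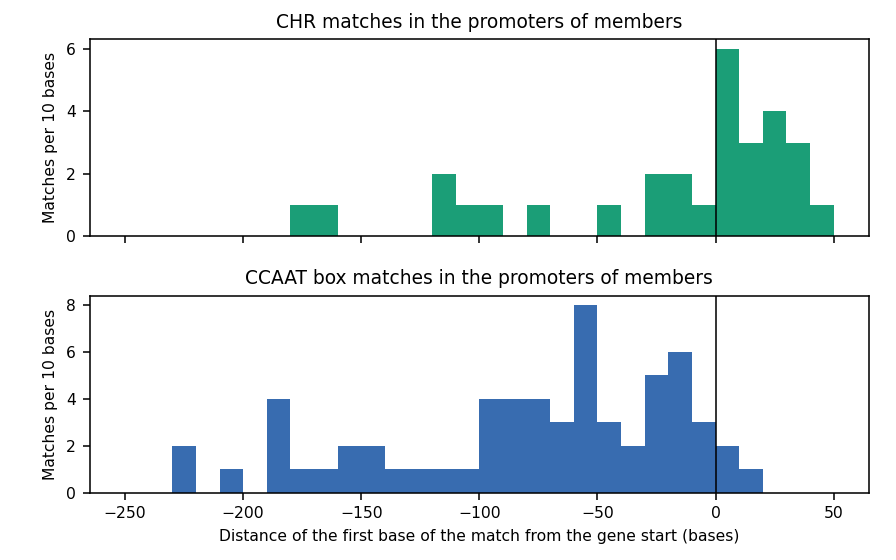
Position of motif matches in the 35 member promoters. The horizontal axis gives the distance of the first base of a match from the gene start in bases and the vertical axis the number of matches per 10 bases, for the CHR core in the upper panel and the CCAAT box in the lower. CHR matches gather around the start, where 22 of the 35 promoters have one within 50 bases.

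The level of pro-B markers was high in every library. The 12 listed pro-B genes summed to 3882 to 4128 FPKM in CBE line 1, 2991 to 3223 in CBE line 2 and 3557 to 3775 in the Eµ-deleted line, against 2800 to 3532 in WT. All 12 reached 1 FPKM in some library, but Rag1 and Rag2, the recombinase genes that define the stage, were at 0.0427 FPKM or less in both WT libraries. The 5 T cell markers found in the files summed to at most 0.0117 FPKM in CBE line 1 and 0.0157 in Eµ-deleted libraries and were at 0 in CBE line 2, against 0.123 to 0.135 in WT, with Cd3e, Cd4 and Cd8a listed at 0 throughout. The 6 myeloid markers summed to 3.79 to 8.85 FPKM in CBE line 1, 1.61 to 2.42 in CBE line 2 and 2.01 to 3.15 in the Eµ-deleted line, against 3.27 to 6.71 in WT, with 2 of them at 1 FPKM or more in any library and Elane at 0. The 3 NK markers summed to 0.388 to 0.574, 0.913 to 1.09 and 0.593 to 0.774 FPKM in the same 3 lines and 1.76 to 2.39 in WT, with Ncr1 and Gzma at 0. The 4 erythroid markers stayed at 0.247 FPKM or less and the 4 stromal markers at 0.0382 or less. Read depth is not stated per library. The intervals deposited with each value implied 31.3 to 49.5 M reads, with the largest value in WT replicate 1, and at least 1367 reads for each member in each library. Reads could not be recovered from these intervals, so these figures are rough and are not counts. The part of these markers and depths in the results below was not tested.

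Members differed widely in level. Ube2c, the ubiquitin-conjugating enzyme of the anaphase-promoting complex, had the highest mean over the 8 libraries, at 243 FPKM, and Cenpf, a large kinetochore protein, the lowest, at 7.11 FPKM. The order of roles on this length-scaled measure put the 3 anaphase-promoting complex genes (95.3 to 243 FPKM) and the 3 chromosomal passenger genes (103 to 199 FPKM) at the top, and the 4 mitotic kinases (28.4 to 50.2 FPKM) and 5 cytokinesis genes (14.998 to 83.8 FPKM) lower, with overlapping ranges. The members lie on 14 chromosomes, with at most 8 on any one. Cdc20, Ccna2, Tpx2 and Nusap1 overlap another gene entry in the files (Elovl1, Exosc9, Mir5622 and Oip5), and since strand use in counting is a setting not given in the sources used here, reads of the partners may be mixed and these values are uncertain. Kif4 has a pseudogene entry in the files and Ccnb1 and Ccnb2 have pseudogenes by name in the annotation, so their values may also share reads.

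**Figure D2:**
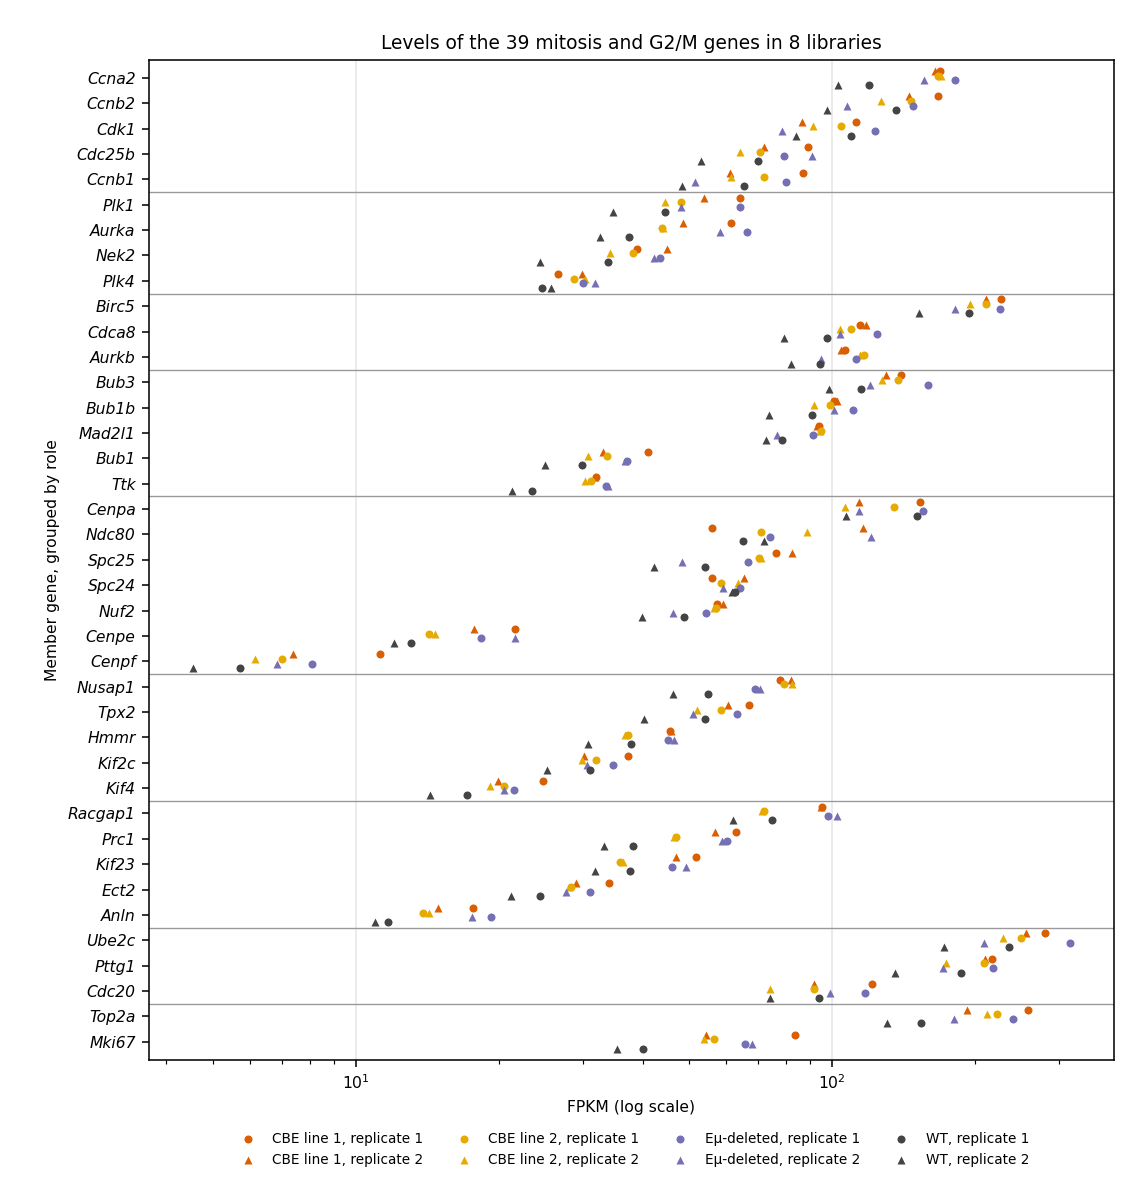
Levels of the 39 members in the 8 libraries. Each row is a gene, grouped by role, each point is 1 library coloured by line, and the horizontal axis is FPKM on a log scale. WT libraries lie at the low end of most rows, and levels run from about the 7.11 FPKM mean of Cenpf to the 243 FPKM mean of Ube2c.

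In CBE line 1, 14 of the 39 members were higher than in WT and none was lower (limma on log2(FPKM + 1), Benjamini-Hochberg adjusted over all genes, threshold 0.05), while 10.9% of all tested genes were called higher and 8.54% lower. The median member difference was 0.42 on the log2 scale, against 0.02 over all tested genes. The higher genes were Aurka, Ccna2, Ttk, Cenpe, Cenpf, Spc25, Kif23, Prc1, Ect2, Racgap1, Anln, Nusap1, Hmmr and Mki67. The difference was positive for 38 of 39 members, against 52.7% of all tested genes, and 32 members had both CBE line 1 libraries above both WT libraries, against 34.1% of all tested genes. In the fits below, leaving out a WT or CBE line 2 library lowered the calls over all tested genes in each comparison with WT. The loss of calls in those fits was thus not seen only in members. Without WT replicate 2, however, members lost a larger part of their calls than all tested genes did. The share of members called then fell below that of all tested genes in each comparison with WT. Leaving out WT replicate 2, the WT library with the lower mitotic levels, ended 13 of the 14 calls, all but Prc1, and gave a median of 0.27. The count was 8 without WT replicate 1, and 4 without CBE line 1 replicate 1 or without either CBE line 2 library.

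In CBE line 2, Ccna2, Ttk, Nusap1 and Prc1 were called higher than WT and none lower, which is 4 of 39 (10.3%), against 10.5% of all tested genes called higher and 8.19% lower in the same fit. How the 2 CBE lines ranked by count depended on the fit: with only the libraries of each comparison, 11 members were called in CBE line 2 (19.0% of all tested genes higher) and 5 in CBE line 1 (8.81%). The median difference was 0.25, against 0.04 over all tested genes. It was positive for 36 of 39 members, against 55.7% of all tested genes, and 24 members did not overlap WT, against 40.2% of all tested genes. Calls were lost without WT replicate 2 or either CBE line 2 library, which left a share of members below that of all tested genes. More members were called without either Eµ-deleted library, where more of all tested genes were called too. With WT replicate 2 left out, the difference was still positive for 30 members, with a median of 0.12.

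In the Eµ-deleted line, 11 members were higher than in WT and none lower, while 11.3% of all tested genes were called higher and 10.4% lower. These were Aurka, Ccna2, Ttk, Cenpe, Kif23, Prc1, Racgap1, Anln, Nusap1, Hmmr and Mki67. The median was 0.37, against 0.0060 over all tested genes, and the difference was positive for 38 of 39 members, against 50.9% of all tested genes. The 2 libraries lay above both WT libraries for 26 members, against 32.6% of all tested genes. Again only Prc1 kept its call without WT replicate 2, and the share of members called fell below that of all tested genes. The median in that fit was 0.28, with 34 positive members. Calls were also lost without either CBE line 2 library and without Eµ-deleted replicate 2, with 38, 38 and 39 positive members. All tested genes lost calls in these fits too. These comparisons share the same WT libraries, so their likeness is not independent.

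With the 2 CBE lines averaged, 11 members were higher than in WT and none lower, against 12.5% of all tested genes called higher and 9.78% lower, and the median was 0.33. Top2a was called in this comparison alone, and Nusap1 was the member whose call held whichever library was left out. Calls were lost without either WT library, CBE line 1 replicate 1 or either CBE line 2 library, and all tested genes lost calls there too. Without WT replicate 2 the share of members called was below that of all tested genes, with 35 positive members. In all, 15 members were called in at least 1 of the 6 directed comparisons (38.5%), as were 36.4% of all tested genes, and 24 in none. A test with no direction, the F test over the 4 lines, called 10 of 39 members, a share near the 27.6% of all tested genes. The F test called fewer members without either WT library or either CBE line 2 library, fits for which no share of all tested genes is given here.

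Same-numbered libraries of the 4 lines deviated together, and adding the replicate number to the fit as a term raised these counts. Against WT, 30 members were called higher in CBE line 1, 13 in CBE line 2, 26 for the mean of the CBE lines and 24 in Eµ-deleted cells, and none was lower. The shares of all tested genes called higher also rose, to 15.9%, 15.7%, 17.9% and 17.6% in that order. No call was lost. Each line has 1 library of each number, so the log2 differences are the same with and without the term. The added member calls reflect smaller SE only. Plk1, Bub1, Bub1b, Bub3, Cdc20, Cdca8, Kif4, Top2a and Nek2 were gained in both CBE line 1 and Eµ-deleted cells, and Aurka, Aurkb, Mad2l1, Kif4, Top2a, Ect2, Nuf2, Spc25 and Mki67 in CBE line 2. The F test called 21 members, against 45.3% of all tested genes. The tests given gene by gene below are those without this term.

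**Figure D3:**
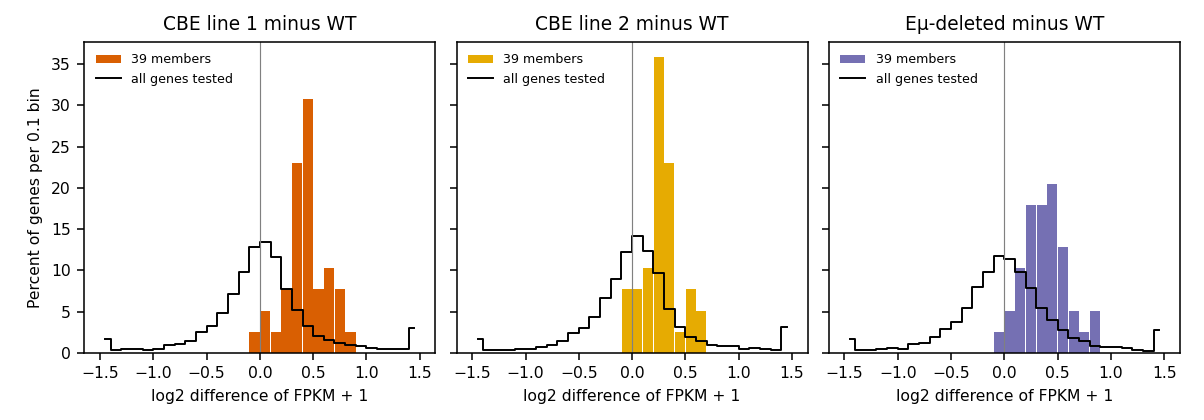
Distribution of log2 differences from WT for the 39 members (bars) and the 10479 tested genes (black line), in bins of 0.1, with a panel for each deletion line (CBE line 1, CBE line 2, Eµ-deleted). The horizontal axis is the log2 difference of FPKM + 1, with the end bins collecting all values beyond them, and the vertical axis is the percent of genes per bin. Member medians of 0.42, 0.25 and 0.37 lie to the right of the medians of all genes.

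Among the entry kinase and cyclins, Ccna2 differed from WT and the others did not pass the test. Ccna2, cyclin A2, was at 169 and 164 FPKM in the CBE line 1 libraries, 167 and 169 in the CBE line 2 libraries and 181 and 156 in the Eµ-deleted libraries, against 119 and 103 in WT. All 6 libraries of the deletion lines were above both WT libraries. The log2 differences were 0.58, 0.59 and 0.60 (SE 0.12 each), with limma adjusted p of 0.0150, 0.0136 and 0.0138. The calls were lost without WT replicate 2, and also without CBE line 1 replicate 1 in that line and without either CBE line 2 library in that line.

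Cdk1, the kinase that Ccna2 and cyclin B activate, did not separate the lines. It stood at 112 and 86.5 FPKM in the CBE line 1 libraries, 105 and 91.2 in the CBE line 2 libraries and 123 and 78.4 in the Eµ-deleted libraries, against 110 and 84.0 in WT. The groups overlapped, and the log2 differences were 0.04, 0.02 and 0.03 (SE 0.25 each). Ccnb1, cyclin B1, was at 86.9 and 60.9 FPKM in the CBE line 1 libraries, 72.1 and 61.3 in the CBE line 2 libraries and 80.0 and 51.5 in the Eµ-deleted libraries, against 65.4 and 48.3 in WT. Replicate 1 was the higher library in each line, and every deletion line overlapped WT. Ccnb2 and the phosphatase gene Cdc25b, which activates CDK1, had log2 differences of 0.13 to 0.47 in the 3 lines and passed no test.

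Of the 4 mitotic kinases, Aurka was called and Plk1, Plk4 and Nek2 were not. Aurka, which builds spindle poles, was at 61.2 and 48.6 FPKM in the CBE line 1 libraries, 44.0 and 44.1 in the CBE line 2 libraries and 66.1 and 58.2 in the Eµ-deleted libraries, against 37.5 and 32.5 in WT. No deletion-line library overlapped WT, and CBE line 2 was the lowest of the 3. The log2 difference was 0.63 (SE 0.14, limma adjusted p = 0.0224) in CBE line 1, and 0.81 (SE 0.14, limma adjusted p = 0.00828) in the Eµ-deleted line. In CBE line 2 it was 0.33 and missed the threshold. The Eµ-deleted call was lost only without WT replicate 2, and the CBE line 1 call was lost without either WT library, CBE line 1 replicate 1 or either CBE line 2 library. Plk1, the Polo-like kinase of mitotic entry, was at 64.0 and 53.8 FPKM in the CBE line 1 libraries, 48.1 and 44.7 in the CBE line 2 libraries and 64.0 and 48.1 in the Eµ-deleted libraries, against 44.6 and 34.7 in WT. The lines differed by 0.56, 0.23 and 0.49 from WT on the log2 scale (SE 0.18), and the deletion-line libraries all lay above WT without passing the test.

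The chromosomal passenger complex, which corrects wrong microtubule attachments, gave no call. Its kinase gene Aurkb was at 107 and 105 FPKM in the CBE line 1 libraries, 117 and 114 in the CBE line 2 libraries and 112 and 94.9 in the Eµ-deleted libraries, against 94.1 and 82.1 in WT. Each deletion-line library was above both WT libraries, by small margins. On the log2 scale it differed from WT by 0.26, 0.39 and 0.23 (SE 0.12 each). Birc5 (survivin) and Cdca8 (borealin) had differences of 0.23 to 0.40.

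In the spindle checkpoint, Ttk was the called gene in each deletion line. Ttk, the kinase MPS1 that starts checkpoint signalling, was at 31.9 and 31.8 FPKM in the CBE line 1 libraries, 31.2 and 30.3 in the CBE line 2 libraries and 33.6 and 33.8 in the Eµ-deleted libraries, against 23.5 and 21.3 in WT. The 2 libraries of each line were close together, and all 6 deletion-line libraries were above WT. The log2 differences were 0.49, 0.45 and 0.57 (SE 0.09 each), with limma adjusted p of 0.00892, 0.0132 and 0.00486. The calls were lost without WT replicate 2, and in CBE line 2 also without either of its own libraries. Bub1, Bub1b, Bub3 and Mad2l1, the other checkpoint genes, differed by 0.15 to 0.43 on the log2 scale and passed no test.

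The kinetochore genes were mixed. Cenpe, a kinesin that carries chromosomes to the spindle equator, was at 21.6 and 17.7 FPKM in the CBE line 1 libraries, 14.3 and 14.6 in the CBE line 2 libraries and 18.3 and 21.6 in the Eµ-deleted libraries, against 13.04 and 12.04 in WT. The CBE line 1 and Eµ-deleted libraries stood clear of WT and of CBE line 2. The log2 difference was 0.61 (SE 0.13, limma adjusted p = 0.0201) in CBE line 1, and 0.63 (SE 0.13, limma adjusted p = 0.0173) in the Eµ-deleted line. The first call was lost without either WT library, CBE line 1 replicate 1 or either CBE line 2 library, and the second without either WT library or Eµ-deleted replicate 2. Cenpf was at 11.2 and 7.38 FPKM in the CBE line 1 libraries, 6.999 and 6.14 in the CBE line 2 libraries and 8.08 and 6.82 in the Eµ-deleted libraries, against 5.72 and 4.55 in WT. The libraries of CBE line 1 were far apart, and its call (log2 difference 0.73, SE 0.20, limma adjusted p = 0.0484) held in 1 of the 8 leave-outs. That call held in 4 of 10 other settings. It was lost with a pseudocount of 5, with no filter or a mean of 5 FPKM, and with only the libraries compared. Median-of-ratios and quantile scaling ended it too.

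Spc25, a subunit of the NDC80 complex that binds microtubules, was at 76.4 and 82.5 FPKM in the CBE line 1 libraries, 70.3 and 70.8 in the CBE line 2 libraries and 66.5 and 48.5 in the Eµ-deleted libraries, against 54.1 and 42.3 in WT. The Eµ-deleted libraries overlapped WT, and those of both CBE lines did not. It was called in CBE line 1 (0.72, SE 0.18, limma adjusted p = 0.0326), and the call held in 2 of 8 leave-outs, those of the Eµ-deleted libraries. Its partners Nuf2, Spc24 and Ndc80 passed no test. Ndc80 was at 56.0 and 116 FPKM in the libraries of CBE line 1, a gap of -1.04 on the log2 scale (replicate 1 minus replicate 2), and replicate 2 was the higher in each line. Spc24 and Cenpa, the centromeric histone, differed from WT by -0.08 to 0.07 on the log2 scale in the 3 lines.

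Among the spindle and motor genes, Nusap1 and Hmmr were called and Kif4, Kif2c and Tpx2 were not. Nusap1, which bundles spindle microtubules, was at 77.8 and 81.9 FPKM in the CBE line 1 libraries, 79.3 and 82.4 in the CBE line 2 libraries and 69.0 and 70.5 in the Eµ-deleted libraries, against 54.9 and 46.2 in WT. All 6 deletion-line libraries were above WT, and both CBE lines were above the Eµ-deleted line. The log2 differences were 0.65, 0.67 and 0.46 (SE 0.10 each), with limma adjusted p of 0.00618, 0.00541 and 0.0237. The CBE line 1 call was lost only without WT replicate 2 (limma adjusted p = 0.0527), and the CBE line 2 call only without CBE line 2 replicate 2 (limma adjusted p = 0.0553). The Eµ-deleted call was lost without WT replicate 2, either CBE line 2 library or Eµ-deleted replicate 2. Oip5, the gene whose entry overlaps Nusap1, differed from WT by 0.13, 0.53 and 0.21 in the 3 lines and was not called.

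Hmmr, a spindle assembly factor that is also a hyaluronan receptor, was at 45.7 and 45.8 FPKM in the CBE line 1 libraries, 37.2 and 36.7 in the CBE line 2 libraries and 45.3 and 46.5 in the Eµ-deleted libraries, against 37.8 and 30.8 in WT. CBE line 2 overlapped WT and the other lines did not. Hmmr differed by 0.41 (SE 0.11, limma adjusted p = 0.0430) in CBE line 1 and 0.42 (SE 0.11, limma adjusted p = 0.0385) in the Eµ-deleted line. Both calls were lost with only the libraries compared, and the first also with a filter at a mean of 5 FPKM. The CBE line 1 call was lost under median-of-ratios scaling and held in 3 of 8 leave-outs, and the Eµ-deleted call held in 1.

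All 5 central spindle and cytokinesis genes were higher in CBE line 1, 4 in the Eµ-deleted line and 1, Prc1, in CBE line 2. Prc1, which crosslinks the microtubules of the central spindle, was at 62.7 and 56.9 FPKM in the CBE line 1 libraries, 47.0 and 46.6 in the CBE line 2 libraries and 60.1 and 58.8 in the Eµ-deleted libraries, against 38.1 and 33.1 in WT. The libraries formed a step in which CBE line 2 lay between WT and the other lines with no overlap. The log2 differences were 0.73, 0.39 and 0.73 (SE 0.10 each), with limma adjusted p of 0.00332, 0.0407 and 0.00358. In CBE line 1 and the Eµ-deleted line these were the member calls that held without any single library, with highest adjusted p of 0.0356 and 0.0377. The CBE line 2 call was lost without any one of its own libraries or the WT libraries. It was also lost under median-of-ratios scaling and with a filter at a mean of 5 FPKM.

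Kif23, the kinesin MKLP1 of the central spindle, was at 51.7 and 47.0 FPKM in the CBE line 1 libraries, 35.9 and 36.4 in the CBE line 2 libraries and 46.2 and 49.5 in the Eµ-deleted libraries, against 37.7 and 31.7 in WT. Racgap1, its partner in the centralspindlin complex, was at 95.3 and 94.9 FPKM in the CBE line 1 libraries, 71.9 and 71.4 in the CBE line 2 libraries and 97.8 and 102 in the Eµ-deleted libraries, against 74.7 and 61.9 in WT. For both genes the CBE line 2 libraries fell between the 2 WT libraries, and the other lines were above all 4. The Kif23 log2 differences were 0.50 (SE 0.11, limma adjusted p = 0.0229) in CBE line 1 and 0.46 (SE 0.11, limma adjusted p = 0.0298) in the Eµ-deleted line. The Racgap1 differences were 0.48 (SE 0.11, limma adjusted p = 0.0247) in CBE line 1 and 0.55 (SE 0.11, limma adjusted p = 0.0142) in the Eµ-deleted line. These 4 calls all needed WT replicate 2, and held in 4, 4, 3 and 6 of 8 leave-outs in the order given.

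Anln, the actin-binding protein anillin of the cleavage furrow, was at 17.6 and 14.9 FPKM in the CBE line 1 libraries, 13.8 and 14.3 in the CBE line 2 libraries and 19.3 and 17.5 in the Eµ-deleted libraries, against 11.7 and 11.0 in WT. Ect2, the exchange factor that activates RhoA at the furrow, was at 34.0 and 29.0 FPKM in the CBE line 1 libraries, 28.3 and 28.1 in the CBE line 2 libraries and 31.0 and 27.6 in the Eµ-deleted libraries, against 24.4 and 21.1 in WT. No deletion-line library of either gene overlapped WT. The Anln log2 difference was 0.48 (SE 0.11, limma adjusted p = 0.0261) in CBE line 1 and 0.65 (SE 0.11, limma adjusted p = 0.00798) in the Eµ-deleted line, where the call was lost only without WT replicate 2. The Ect2 difference was 0.45 (SE 0.12, limma adjusted p = 0.0445) in CBE line 1, a call that held in 5 of 10 other settings. It was lost under median-of-ratios and quantile scaling, with no filter or a mean of 5 FPKM, and with only the libraries compared. In CBE line 1 each of the 2 genes held its call in 3 of 8 leave-outs.

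The anaphase-promoting complex genes gave no call. Ube2c was at 279 and 255 FPKM in the CBE line 1 libraries, 249 and 229 in the CBE line 2 libraries and 316 and 209 in the Eµ-deleted libraries, against 235 and 172 in WT. The Eµ-deleted and CBE line 2 libraries overlapped WT, and those of CBE line 1 did not. Cdc20, the activator of the complex, and Pttg1 (securin, its substrate) differed from WT by -0.02 to 0.42 on the log2 scale.

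Mki67 and Top2a are widely read as markers of cycling cells. Mki67, the Ki-67 antigen, was at 83.7 and 54.4 FPKM in the CBE line 1 libraries, 56.4 and 53.9 in the CBE line 2 libraries and 65.6 and 67.9 in the Eµ-deleted libraries, against 40.1 and 35.3 in WT. All 6 deletion-line libraries were above WT, with CBE line 1 replicate 1 the highest. The log2 difference was 0.83 (SE 0.19, limma adjusted p = 0.0272) in CBE line 1, the largest of any member there, and 0.81 (SE 0.19, limma adjusted p = 0.0276) in the Eµ-deleted line. In CBE line 2 it was 0.54 (limma adjusted p missing the threshold). The CBE line 1 call was lost without any of the WT or CBE line 2 libraries, and the Eµ-deleted call without any of those or its own libraries. Top2a, the topoisomerase that untangles sister chromatids, was at 258 and 192 FPKM in the CBE line 1 libraries, 222 and 211 in the CBE line 2 libraries and 240 and 180 in the Eµ-deleted libraries, against 153 and 131 in WT. No deletion-line library overlapped WT. It was called for the mean of the CBE lines (0.63, SE 0.17, limma adjusted p = 0.0385), a call lost without either WT library, CBE line 1 replicate 1 or either CBE line 2 library. That call was also lost under median-of-ratios scaling and with no filter.

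**Figure D4:**
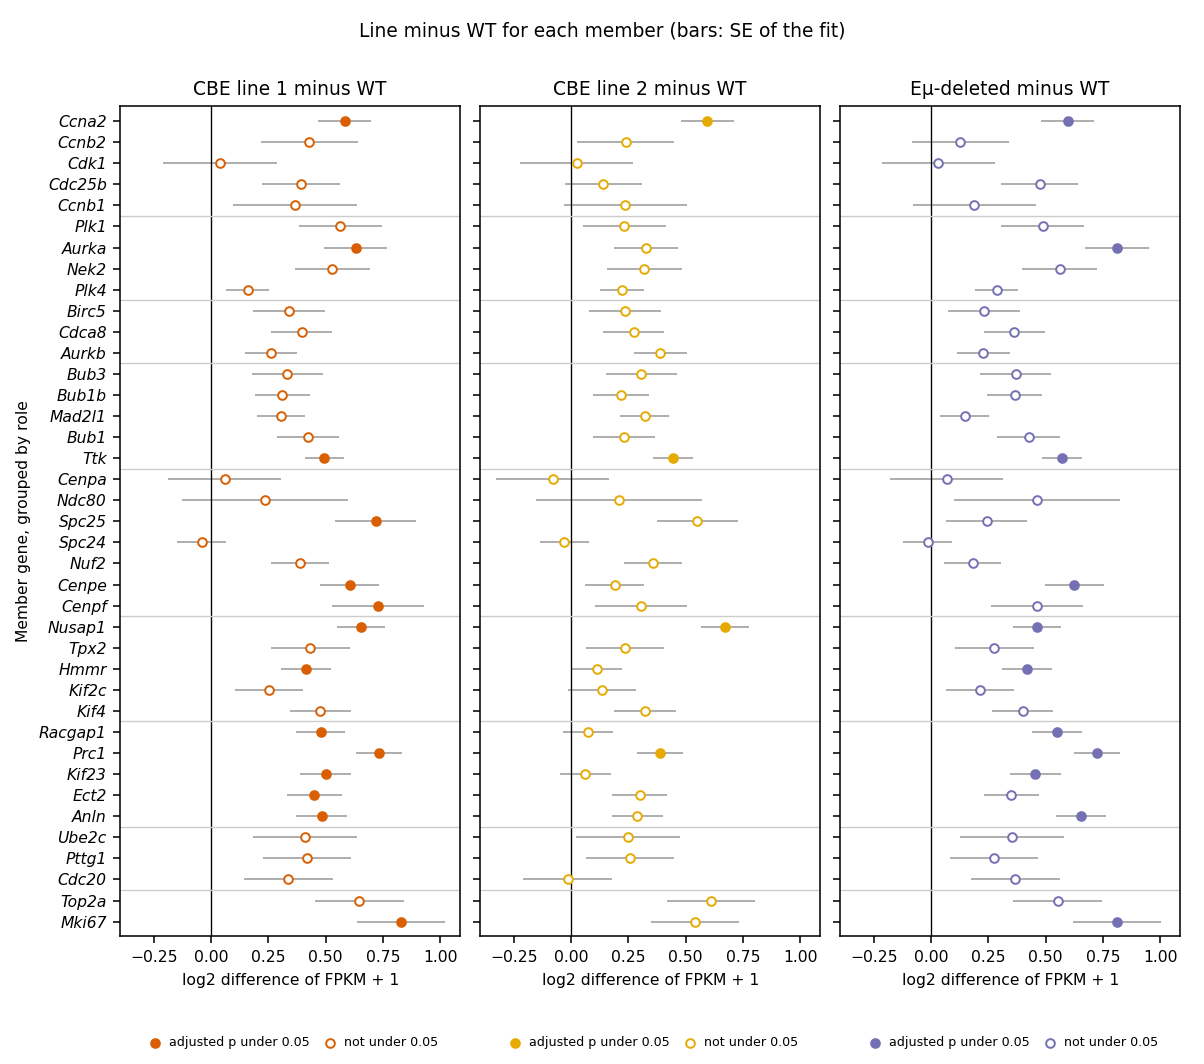
Log2 difference of FPKM + 1 from WT for each member, with a panel for each deletion line (CBE line 1, CBE line 2, Eµ-deleted). Rows are genes grouped by role, points are the fitted differences, bars are their SE, and filled points passed the test. Most points lie right of 0, with 14, 4 and 11 members called in the 3 lines.

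CBE line 2 was set against CBE line 1 directly. None of the 39 members was called (limma, adjusted p under 0.05), with 5 at an unadjusted p under 0.05, while 10.2% of all tested genes were called in either direction. The median member difference was -0.16, against 0.03 over all tested genes, and 33 of the 39 differences were not positive. In 21 members both CBE line 2 libraries were below both CBE line 1 libraries, against 24.1% of all tested genes, and all 5 cytokinesis genes were among them. Kif23 had the widest difference, at -0.44 (SE 0.11), and Racgap1 was at -0.40 (SE 0.11). One member was called when CBE line 1 replicate 2 was left out. With the replicate number as a term, Cdc20, Kif23, Prc1 and Racgap1 were called lower, 4 of 39 (10.3%), against 16.6% of all tested genes called in either direction.

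The Eµ-deleted line was likewise compared with the mean of the CBE lines. None of the members was called (limma, adjusted p under 0.05), with 4 at an unadjusted p under 0.05, while 12.4% of all tested genes were called in either direction. The median was 0.03, against -0.01 over all tested genes. Differences ran from -0.39 for Spc25 to 0.33 for Aurka, and 26 of 39 were positive. One member was called without Eµ-deleted replicate 1, and the median had the opposite sign, -0.10, in that fit. It was also slightly below 0 without CBE line 1 replicate 2. With the replicate number as a term, Aurka was called higher, against 22.2% of all tested genes called in either direction.

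The 2 libraries of a line were not alike in these genes. Replicate 1 was the higher library for 29 of 39 members in each of the 3 deletion lines, and for 37 of 39 in WT. The median member difference, replicate 1 minus replicate 2, was 0.13, 0.07, 0.18 and 0.27 for CBE line 1, CBE line 2, Eµ-deleted and WT cells, while over all tested genes it was -0.03, -0.02, -0.06 and -0.0015. The gap between the WT libraries is of the same order as the median difference of CBE line 2 from WT. On levels centred per gene, the median member stood at 0.24 and 0.09 in the CBE line 1 libraries, 0.05 and -0.06 in the CBE line 2 libraries and 0.19 and -0.0057 in the Eµ-deleted libraries, against -0.14 and -0.41 in WT. WT replicate 2 was the lowest library and WT replicate 1 the next lowest, both below every library of the deletion lines. The part of this shift in the line differences was measured only by leaving out single libraries. The fit with the replicate number cannot measure it. Each line has 1 library of each number, so that fit leaves the line differences unchanged and alters only their SE.

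**Figure D5:**
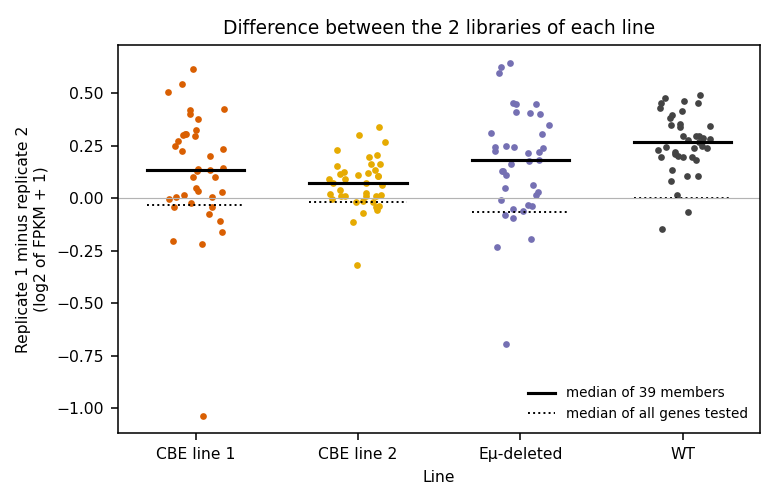
Replicate 1 minus replicate 2 for each member in each line, on the log2(FPKM + 1) scale. Points are genes, columns are lines in the order CBE line 1, CBE line 2, Eµ-deleted and WT, solid bars are member medians and dotted bars medians of all genes tested. Points lie mostly above 0, with member medians of 0.13, 0.07, 0.18 and 0.27.

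Of 115 further mitosis genes in 6 lists, CBE line 1 had 23 higher than WT and none lower, CBE line 2 had 21 higher and 2 lower, and Eµ-deleted cells had 32 higher and 2 lower. The shares called higher were 20.0%, 18.3% and 27.8%, against the 10.9%, 10.5% and 11.3% of all tested genes, which are also the shares to read the smaller lists against. With the replicate number as a term, 46, 39 and 58 were called in either direction. In that fit 1666, 1642 and 1840 of all 10479 tested genes were called higher and 1476, 1371 and 1723 lower. The medians of the 115 genes were 0.27, 0.21 and 0.26. Condensin, the complex that compacts mitotic chromosomes, gave 4, 4 and 6 higher of 8, and none lower. Its gene Smc2 was at 65.7 and 69.0 FPKM in the CBE line 1 libraries, 61.8 and 64.7 in the CBE line 2 libraries and 71.8 and 70.6 in the Eµ-deleted libraries, against 46.7 and 43.4 in WT. These groups did not overlap, and the log2 differences were 0.57, 0.48 and 0.65 (SE 0.09 each) with limma adjusted p of 0.00480, 0.00944 and 0.00284. The condensin II gene Ncapd3 differed by 0.35, 0.42 and 0.63 and Ncapg2 by 0.55, 0.58 and 0.59 on the same scale, all called.

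The other kinetochore list of 31 genes gave 5 higher (16.1%) and 0 lower in CBE line 1, and 6 higher (19.4%) and 1 lower in each of the other lines. Zw10, which recruits dynein to kinetochores, differed by 0.50 and 0.62 in the CBE lines (both called) and by 0.29 in the Eµ-deleted line (not called). Ska3, which couples kinetochores to microtubules, differed by 0.47, 0.61 and 0.46, all called. Cenpp, of the inner kinetochore, went the other way, with 25.8 and 26.3 FPKM in the CBE line 1 libraries, 22.2 and 22.4 in the CBE line 2 libraries and 18.4 and 17.5 in the Eµ-deleted libraries, against 28.7 and 30.1 in WT. It was called lower in CBE line 2 (-0.39) and the Eµ-deleted line (-0.68). Among 21 further spindle genes, 6, 3 and 9 were higher (28.6%, 14.3% and 42.9%) and none lower, and the kinesin gene Kif18b differed by 0.62, 0.48 and 0.69, all called. The cytokinesis kinase gene Cit and the kinesin gene Kifc5b were called in the Eµ-deleted line alone, at 0.66 and 0.51.

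Of 19 genes of the anaphase-promoting complex and separase axis, CBE line 1 had none called, CBE line 2 had 1 lower, and Eµ-deleted cells had 1 of each direction. Cdc23, a subunit of the complex, was the lower gene in both (-0.33 and -0.29), and Ube2s, its chain-extending enzyme, was the higher one (0.33). Of 23 other G2/M regulators, 5, 6 and 6 were higher (21.7%, 26.1% and 26.1%) and none lower. Cdca2, Melk and Depdc1b were called in all 3 lines, with differences of 0.67 to 0.81 for Cdca2, 0.72 to 0.88 for the kinase gene Melk and 0.74 to 0.80 for Depdc1b. Wee1, the kinase that restrains CDK1, was called in the Eµ-deleted line alone (0.45).

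The regulators of G2/M transcription were described by a list of 13, in which 3, 2 and 4 were higher (23.1%, 15.4% and 30.8%) and none lower. Foxm1 was at 41.1 and 46.1 FPKM in the CBE line 1 libraries, 41.5 and 43.3 in the CBE line 2 libraries and 42.9 and 56.3 in the Eµ-deleted libraries, against 28.9 and 26.8 in WT. All 6 deletion-line libraries were above WT. The log2 differences were 0.63, 0.59 and 0.80 (SE 0.14 each), with limma adjusted p of 0.0243, 0.0302 and 0.00952. Mybl2, which encodes B-MYB, was at 26.3 and 27.2 FPKM in the CBE line 1 libraries, 31.6 and 31.8 in the CBE line 2 libraries and 31.6 and 30.9 in the Eµ-deleted libraries, against 27.2 and 26.2 in WT, and passed no test. Rbl1, the pocket protein p107 of repressive E2F complexes, differed by 0.40, 0.33 and 0.42, all called. E2f5, a repressive E2F, was called in CBE line 1 (0.59) and the Eµ-deleted line (0.86). Calls over the 6 lists in either direction were 23, 23 and 34 in the 3 deletion lines. They fell without either WT library or either CBE line 2 library. The share of the genes of these lists called was then below that of all tested genes in each line. The CBE line 1 count also fell without its replicate 1, to a share below that of all tested genes. The Eµ-deleted count fell without its replicate 2, to a share near that of all tested genes.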

How the data were processed

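RNA was measured in 8 libraries, 2 from each of 4 lines, made with a stranded mRNA kit and sequenced as single 75-base reads at a target of 20 to 30 M, per the labels' protocols. The authors deposited FPKM per gene, made with TopHat and Cufflinks on build mm9, per the submitters' processing notes, with versions and strand use not given in the sources used here. Of the low values, 59.8% came back as whole reads within 0.01, which is short of nearly all, so reads were not recovered and no count test was run.

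Rows of 1 symbol were summed (277 symbols), and 21 symbols with a deposited status other than OK in any library were left out. The 10479 genes that reached 1 FPKM in 2 libraries entered limma 3.58.1 (R 4.3.3) as log2(FPKM + 1), with a mean-variance trend, 1 fit over all 8 libraries (4 residual and 2.65 prior degrees of freedom), and Benjamini-Hochberg adjustment over all genes at 0.05. Differences on this scale understate those of low genes. Intervals and implied reads take each deposited interval as 2 SD per side. The labels share replicate numbers 1 and 2 between lines without saying what a number marks. The difference between replicate 1 and 2 correlated across genes at 0.28 to 0.50 in all 6 pairs of lines, so same-numbered libraries were treated as possibly paired and fits with the replicate number are given beside the counts they change. Figures and tables used Python 3.11.15.

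The members and lists were chosen with earlier results of these data known, and support nothing by their choice. Values in every library are given for Mki67, Top2a, Cdk1, Ccnb1, Plk1 and Aurkb, for each member called in any of the 6 directed comparisons, and for the members with the highest and lowest mean. Up to 3 called genes with the smallest F-test p are named from each further list, with Foxm1, Mybl2 and Wee1 always. Alternatives were other pseudocounts (0.1 and 5), no filter or a mean of 5 FPKM, median-of-ratios, quantile and TPM scaling, no trend, only the libraries compared, the replicate number as a term, and each library left out.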

Additional observations from a re-analysis of the deposited data

Results flagged for a closer look

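The 6 further mitosis lists and the S phase list hold 138 genes, of which 2 (1.45%) were called between CBE line 2 and CBE line 1 and 6 (4.35%) between the Eµ-deleted line and the mean of the CBE lines, by a direct test in the same fit (limma, adjusted p under 0.05). Both shares are below those of all tested genes, 10.2% and 12.4%. CBE line 2 was lower than CBE line 1 for Cdc23, at -0.60 on the log2 scale (limma adjusted p = 0.00592), with 31.7 and 32.6 FPKM in CBE line 2, against 48.4 and 49.9 in CBE line 1. Kif20a, a kinesin of the central spindle, was lower by the same test at -0.75 (limma adjusted p = 0.0349), with 48.9 and 41.7 FPKM in CBE line 2, against 84.6 and 69.1 in CBE line 1.

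The Eµ-deleted line was lower than the mean of the CBE lines for Ccne1 (-0.57, limma adjusted p = 0.00422), Cenpp (-0.40, limma adjusted p = 0.0138), Rfc4 (-0.40, limma adjusted p = 0.0464) and Zwint (-0.78, limma adjusted p = 0.0190). Ccne1 and Rfc4 are from the S phase list. The Eµ-deleted line was higher for Pkmyt1 (0.45, limma adjusted p = 0.0298), which encodes an inhibitory CDK1 kinase, and Ube2s (0.33, limma adjusted p = 0.0348). For Zwint the Eµ-deleted libraries were at 16.1 and 11.2 FPKM, against 23.3 and 23.6 in CBE line 1 and 25.3 and 22.9 in CBE line 2.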

How the results depend on the processing

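No called member changed sign under any of the alternatives run. Apart from leave-outs, 10 other settings were run. Calls against WT that held in all of them were 4 of 14 in CBE line 1, 3 of 4 in CBE line 2, 7 of 11 for the CBE mean and 4 of 11 in the Eµ-deleted line. Leaving out each library in turn gave 1 to 16 members called in CBE line 1 against WT, 0 to 8 in CBE line 2, 1 to 14 for the mean of the CBE lines, 1 to 11 in the Eµ-deleted line, 0 to 1 for CBE line 2 against CBE line 1, 0 to 1 for the Eµ-deleted line against the CBE mean, and 1 to 11 by the F test. The median member difference ranged over 0.27 to 0.58, 0.12 to 0.42, 0.21 to 0.47, 0.28 to 0.52, -0.26 to -0.09 and -0.10 to 0.11 in the 6 comparisons in that order. For the further mitosis genes the counts ranged over 1 to 33, 2 to 29, 4 to 36 and 6 to 40 in the 4 comparisons with WT. A line left with 1 library is assumed there to vary like the others. Leaving out a WT or CBE line 2 library also lowered the calls over all tested genes in each comparison with WT. Without WT replicate 2 the members lost a larger part of their calls than all tested genes did.

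Given as CBE line 1, CBE line 2, CBE mean and Eµ-deleted against WT, TPM scaling called 22, 9, 19 and 19 members (12.8%, 12.5%, 15.2% and 13.9% of all tested genes higher), and 35 further genes in CBE line 1. Quantile scaling called 7 members in CBE line 2 (9.68% of all tested genes higher). It turned the all-gene split there to 1014 higher and 1198 lower, from 1102 and 858. The split turned likewise in CBE line 1 (1023 and 1148, from 1138 and 895) and the CBE mean (1142 and 1302, from 1314 and 1025). In the Eµ-deleted line it turned to 1143 and 1279, from 1189 and 1095. Median-of-ratios scaling called 15 further genes in CBE line 2. Fitting only the libraries compared called 5 (CBE line 1), 11 (CBE line 2) and 5 (Eµ-deleted) members, beside 8.81%, 19.0% and 6.11% of all tested genes called higher, and 12, 39 and 7 further genes. The cause was not tested.

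The labels do not say what a shared replicate number marks, so the pairing is a hint from the data. A replicate block called 30, 13, 26 and 24 members (15.9%, 15.7%, 17.9% and 17.6% of all tested genes higher) and 46, 39, 48 and 58 further genes against WT, 4 members in CBE line 2 against CBE line 1, 1 in the Eµ-deleted line against the CBE mean, and 21 by the F test. The further genes are counted in either direction. Called lower in this fit were 1476, 1371, 1581 and 1723 of all 10479 tested genes, beside 1666, 1642, 1879 and 1840 higher. FPKM tables carry no read counts, so depth limits were not computed per value.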

Other observations

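S phase genes, a list of 23, were set beside the mitosis genes. In CBE line 1, 2 were higher than WT, in CBE line 2, 5 were, and in the Eµ-deleted line, 3 were, with none lower in any (limma, adjusted p under 0.05). These are 8.70%, 21.7% and 13.04% of the list, against 10.9%, 10.5% and 11.3% of all tested genes called higher. Their median log2 differences were 0.28, 0.40 and 0.09, beside 0.42, 0.25 and 0.37 for the 39 mitosis and G2/M genes, so the lists ranked CBE line 2 and CBE line 1 in opposite order; the difference between the lists was not tested. Ccne1, cyclin E1, was at 24.6 and 24.0 FPKM in the CBE line 1 libraries, 32.0 and 30.1 in the CBE line 2 libraries and 17.6 and 18.9 in the Eµ-deleted libraries, against 17.999 and 17.3 in WT. Its log2 difference was 0.44 in CBE line 1 and 0.78 in CBE line 2 (limma adjusted p = 0.0149 and 0.00114), and 0.04 in the Eµ-deleted line. Rfc4, a subunit of the clamp loader, was at 71.9 and 87.1 FPKM in the CBE line 1 libraries, 104 and 112 in the CBE line 2 libraries and 70.6 and 68.8 in the Eµ-deleted libraries, against 65.5 and 70.8 in WT, and was called in CBE line 2 (0.66, limma adjusted p = 0.00870). Cdc45, a part of the replicative helicase, was called in all 3 lines, at 0.34, 0.50 and 0.36. The CHR core occurred in a promoter of 2 of the 17 genes of this list that had one (11.8%).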
